A study of Mus musculus with 7 samples.

Results

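The Z-disc is the protein lattice at each end of the sarcomere, where thin filaments of neighbouring sarcomeres are cross-linked. Its core is alpha-actinin, which bundles actin and holds the end of titin, and around it sit small adaptor proteins that bind alpha-actinin, filamin and signalling enzymes. In skeletal muscle these proteins appear as myoblasts leave the cell cycle, fuse and assemble myofibrils, and mutations in several of them cause myofibrillar myopathies or cardiomyopathy. The 10 genes described here encode the muscle alpha-actinins (Actn2, Actn3), the titin cap (Tcap), the myozenins (Myoz1, Myoz2, Myoz3), the PDZ-LIM proteins Ldb3 and Pdlim3, myotilin (Myot) and the muscle filamin (Flnc). They were chosen by name, and each matched 1 row of the 37975 genes in the expression table.

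The cells were mouse primary myoblasts grown from satellite cells, the muscle stem cells, which were sorted from animals 4 to 6 weeks of age. The labels give neither strain nor sex. RNA came from myoblasts in growth medium and from myotubes kept for 48 hours in DMEM with 5% horse serum, and both carried an empty retroviral vector, so that vector and infection are shared by the groups compared. For MyoD, the myogenic bHLH factor, there was a chromatin immunoprecipitation (ChIP) sample of 2-day myotubes, for which the labels name no vector. Each of these 3 groups has 1 sample, and the 4 histone ChIP samples of the series were not analysed here.

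Expression was given as FPKM, fragment counts scaled to transcript length and library size, with 1 value per gene and condition. No difference therefore has a replicate check, and the depth of the RNA libraries is unknown. A gene is called where the authors' test marked it significant, at a q-value of at most 0.05. Standard errors (SE) were recovered from the authors' fold changes and test statistics. The 5 myotube markers fixed for the check of the labels (Myog, Myh3, Ckm, Acta1 and Tmem8c) were all called higher in myotubes (authors' deposited table). Their summed level was 1197 FPKM in the growing sample and 18846 in the myotubes, so the growing sample held such transcripts too. Whether that moved the growing levels of Z-disc genes was not tested. Of the 5 myoblast markers, Pax7 and Myf5 were called lower and Des higher by the authors' deposited table. Fibroblast, adipocyte and endothelial markers summed to at most 4.69 FPKM in either sample, with Lum and Plin1 at 0 in both. The endothelial marker Pecam1, at 4.62 FPKM in growing myoblasts and 0.213 in myotubes, was called lower by the authors' deposited table (q = 0.000445). Immune markers summed to 31.6 and 27.1 FPKM, with Ptprc at no more than 0.0224, Itgam at 20.6 and 24.3 and Cd68 at 11.04 and 2.80. Cd68 was called lower by the authors' deposited table (q = 0.00126). The smooth muscle markers summed to 229 and 2025 FPKM, nearly all of it Acta2, with Cnn1 at 0 in both samples. In bulk RNA, fewer cells of a type and less RNA per cell cannot be told apart.

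By the authors' deposited table, 9 of the 10 Z-disc genes were tested and 8 were called higher in myotubes, against 6.52% of the 15966 genes tested. None of the 10 was called lower, against 17.3% of tested genes. Called genes rose by 3.27-fold (Flnc) to 22.7-fold (Tcap). Actn3 was tested and not called, and Myoz3 was not tested by the authors. On the scale of log2((FPKM + 1)/(FPKM + 1)), the median ratio of the 9 tested genes was 2.78, beside -0.38 over all tested genes. All genes together lay below 0, with a median log2 fold change of -0.41 over the 15416 tested genes above 0 in both samples. The summed FPKM of the 10 genes was 375 in growing myoblasts and 2530 in myotubes.

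**Figure D1:**
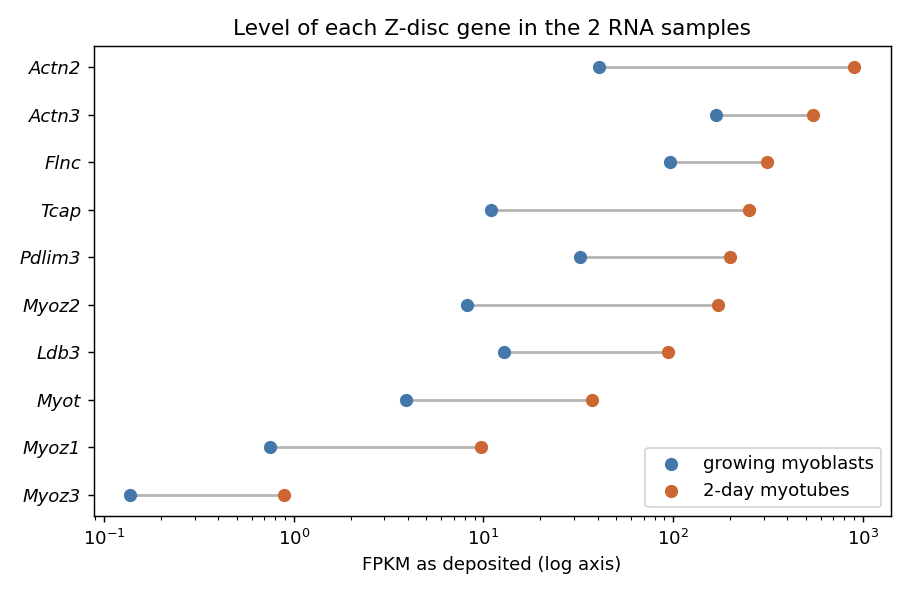
Level of each of the 10 Z-disc genes in growing myoblasts (blue) and 2-day myotubes (orange), 1 value per sample, as deposited FPKM on a log axis. All 10 myotube values lie to the right of their myoblast values; Actn3 was highest in myoblasts, at 169 FPKM, and Actn2 in myotubes, at 903 FPKM.

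The promoters of 4 of these genes are shown first, because the question of the series is where MyoD binds and MyoD recognises certain forms of the E-box. An E-box was matched by its letters alone, so it need not be a MyoD site. Each line is the 250 bases before the annotated start, 5′ to 3′ on the gene's strand, from RefSeq on GRCm38.p6. Capitals mark every E-box (CANNTG, whose reverse complement is again CANNTG) and the MEF2 site, a run of CTA, any 4 of A or T, and TAG. Actn2, on the minus strand at chr13:12340733-12340982, and Myoz2, on the minus strand at chr3:123034988-123035237, are among the strongest risers. Pdlim3, on the plus strand at chr8:45885237-45885486, and Flnc, on the plus strand at chr6:29432903-29433152, have MyoD summits nearby.
Actn2: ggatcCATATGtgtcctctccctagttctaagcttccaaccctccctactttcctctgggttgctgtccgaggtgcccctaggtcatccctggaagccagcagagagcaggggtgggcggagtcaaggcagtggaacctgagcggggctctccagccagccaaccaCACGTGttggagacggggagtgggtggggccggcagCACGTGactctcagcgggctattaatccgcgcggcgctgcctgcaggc
Myoz2: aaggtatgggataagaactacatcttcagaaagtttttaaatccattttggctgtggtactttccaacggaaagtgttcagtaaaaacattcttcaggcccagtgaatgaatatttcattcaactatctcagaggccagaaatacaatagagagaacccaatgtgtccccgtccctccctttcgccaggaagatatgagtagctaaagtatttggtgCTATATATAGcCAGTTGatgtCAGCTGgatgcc
Pdlim3: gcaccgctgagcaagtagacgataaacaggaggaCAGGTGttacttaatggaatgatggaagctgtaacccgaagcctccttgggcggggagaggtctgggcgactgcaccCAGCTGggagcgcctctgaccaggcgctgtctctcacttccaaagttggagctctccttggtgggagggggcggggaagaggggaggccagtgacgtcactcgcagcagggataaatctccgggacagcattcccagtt
Flnc: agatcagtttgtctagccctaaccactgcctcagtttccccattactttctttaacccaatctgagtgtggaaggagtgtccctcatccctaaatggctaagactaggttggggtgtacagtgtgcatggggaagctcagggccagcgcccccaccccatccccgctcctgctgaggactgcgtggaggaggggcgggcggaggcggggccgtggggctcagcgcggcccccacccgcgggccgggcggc

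Actn2 held 3 E-boxes in this window, of which CACGTG occurred at 84 and at 48 bases before the start and CATATG at 245. It held neither the CAGCTG form nor the CAGGTG or CACCTG form. In Myoz2 the letters CAGTTG began 22 bases and CAGCTG 12 bases before the start, just after a MEF2 match that began at 33 bases. The MEF2 pattern was found in 0.508% of the 32851 promoters searched and CAGCTG in 13.0%. Pdlim3 held CAGGTG at 216 and CAGCTG at 139 bases before its start, and the CAGGTG or CACCTG form was found in 17.2% of promoters. The CATATG form was found in 3.46% of promoters. Shares for CACGTG and CAGTTG were not counted, so those forms have no background here. Flnc held no E-box in this window or before its other annotated start, and Ldb3 held none before either of its 2 starts. An E-box of any form was present in 3 of the 5 matched genes, in 3 of their 7 promoter entries, and in 66.2% of all promoters. The 2 entries of Flnc overlap each other, as do those of Ldb3, so E-box-free sequence is counted repeatedly. The form CATCTG or CAGATG, found in 14.4% of promoters, occurred in none of the 5. Actn3, Tcap, Myoz1, Myoz3 and Myot had no entry in the promoter table. Coordinates of this build are not those of the mm9 build used for the expression and peak data, so motifs and peaks were not overlaid.

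The alpha-actinins form the cross-links of the Z-disc. Actn2, the form present in all striated fibres and in heart (ENSMUSG00000052374, mm9 chr13:12361692-12433027), was at 40.7 FPKM in growing myoblasts and 903 in myotubes. By the authors' deposited table this 22.2-fold rise was called (log2 4.47, SE 0.78, q = 3.14e-07), and it moved Actn2 from rank 4760 to rank 189 of the tested genes by level. Actn3, the fast-fibre form (ENSMUSG00000006457, mm9 chr19:4861222-4877909), was at 169 FPKM in growing myoblasts and 550 in myotubes, 3.25-fold apart. The authors' deposited table does not call this difference (log2 1.70, SE 0.81, p = 0.0366, q = 0.118). Relative to the median of all tested genes the difference was 2.11 with an adjusted p of 0.0473 by the Benjamini-Hochberg method, so the call depends on that scaling. With it, all 9 tested Z-disc genes were called higher, against 9.82% of tested genes. The order of the pair changed between samples. Actn3 was listed at 4.16 times the level of Actn2 in the growing sample, and Actn2 at 1.64 times the level of Actn3 in myotubes. The log2 fold change of Actn2 exceeded that of Actn3 by 2.77 (SE 1.12, 95% interval 0.57 to 4.98), with errors taken as independent.

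Tcap, which caps the ends of titin at the Z-disc (ENSMUSG00000007877, mm9 chr11:98245124-98246267), had the largest fold change of the 10 genes. It was at 11.04 FPKM in growing myoblasts and 251 in myotubes (log2 4.51, SE 0.71, q = 1.22e-08, authors' deposited table). By fold change it stood at rank 72 of the 15416 tested genes above 0 in both samples, with Actn2 at rank 74 and Myoz2 at rank 87. All 9 tested Z-disc genes stood at rank 928 or better.

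Myozenins bind alpha-actinin and filamin and tether the phosphatase calcineurin to the Z-disc. Myoz2, the form of slow fibres and heart (ENSMUSG00000028116, mm9 chr3:122709123-122737908), was at 8.21 FPKM in growing myoblasts and 172 in myotubes. By the authors' deposited table it rose 20.9-fold (log2 4.39, SE 0.47, q listed as 0), with the second smallest SE of the 10 genes. Myoz1, a fast-fibre form (ENSMUSG00000068697, mm9 chr14:21468323-21475762), was at 0.754 and 9.70 FPKM and rose as well (log2 3.69, SE 0.80, q = 6.26e-05, authors' deposited table). Myoz3, also of fast fibres (ENSMUSG00000049173, mm9 chr18:60735969-60751442), was listed at 0.137 and 0.889 FPKM, and was marked as not tested. Its log2 value of 2.70 in the authors' deposited table had an SE of 1.59 and a 95% interval from -0.43 to 5.82, which includes 0. Myoz2 made up 90.2% of the summed myozenin FPKM in growing myoblasts and 94.2% in myotubes. It stood at 17.7 times the level of Myoz1 in the myotubes.

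The myozenin make-up is given beside fibre-type and cardiac markers. Of the slow-fibre markers, all 6 tested rows were called higher by the authors' deposited table, among them Myh7 from 28.0 to 171 FPKM. Tnnc1 was repeated among these rows, and the slow-fibre marker Myl3, at 0 and 0.240 FPKM, was not tested. All 6 fast-fibre markers were called higher by the same table, among them Myh1 from 35.8 to 503 FPKM. The cardiac markers Nppa, Nppb and Myl7 were at no more than 0.171 FPKM in either sample, and Tnni3, at 1.99 and 0, was called lower by the authors' deposited table. Myh6, the remaining cardiac marker, was at 6.05 and 42.5 FPKM and was called higher (authors' deposited table). The part of fibre type in the myozenin levels was not tested.

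Ldb3 and Pdlim3 carry PDZ and LIM domains, and their PDZ domain binds alpha-actinin. Ldb3 (ENSMUSG00000021798, mm9 chr14:35339884-35401867) was at 12.8 FPKM in growing myoblasts and 93.9 in myotubes (log2 2.87, SE 0.44, q = 3.62e-09, authors' deposited table). Pdlim3 (ENSMUSG00000031636, mm9 chr8:46970838-47004900) was at 32.4 and 199 FPKM (log2 2.62, SE 0.67, q = 0.000934, authors' deposited table). Both rose, by 7.32-fold and 6.13-fold, and Pdlim3 stayed above Ldb3, at 2.53 times its level in growing myoblasts and 2.12 times in myotubes. Their log2 fold changes differed by 0.26 (95% interval -1.31 to 1.82).

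Myot, an immunoglobulin-domain protein that bundles actin and binds alpha-actinin (ENSMUSG00000024471, mm9 chr18:44493727-44515378), was at 3.92 FPKM in growing myoblasts and 37.5 in myotubes. By the authors' deposited table it rose 9.57-fold (log2 3.26, SE 0.60, q = 1.53e-06). Flnc, the muscle filamin that links the Z-disc to the sarcolemma (ENSMUSG00000068699, mm9 chr6:29383152-29411888), was at 96.0 and 314 FPKM. Its 3.27-fold rise was the smallest of the called genes by the authors' deposited table (log2 1.71, SE 0.54, q = 0.00923). Flnc and Actn3 were the highest of the 10 genes in growing myoblasts and had the smallest log2 fold changes of the 9 tested. The growing level is the divisor of the fold change, so this pairing is partly set by arithmetic.

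**Figure D2:**
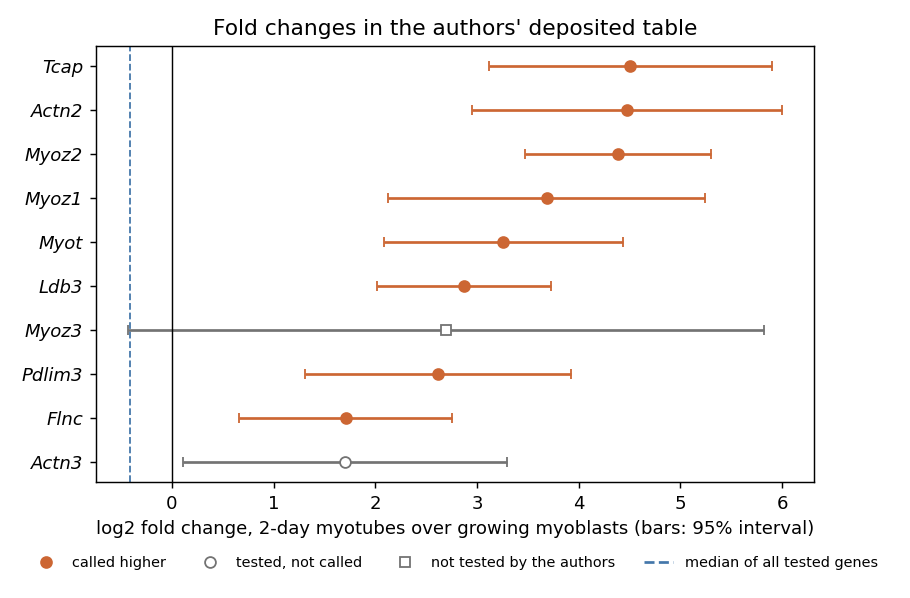
Log2 fold change of each Z-disc gene, 2-day myotubes over growing myoblasts, from the authors' deposited table, with 95% intervals from the recovered SE. Filled points were called higher, the open circle (Actn3) was tested and not called, the open square (Myoz3) was not tested, and the dashed line marks the median of all tested genes at -0.41.

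By log2 fold change the tested genes ran in the order Tcap, Actn2, Myoz2, Myoz1, Myot, Ldb3, Pdlim3, Flnc and Actn3. In none of the 8 neighbouring pairs were the 95% intervals apart. Of all 36 pairs, 4 had intervals that did not overlap: Flnc against Tcap, Actn2 and Myoz2, and Actn3 against Myoz2. Taking the difference itself, its interval lay above 0 in 9 of the 36 pairs, with no adjustment for their number. Myoz2 exceeded Flnc by 2.68 (SE 0.71) and Tcap exceeded Flnc by 2.80 (SE 0.89) on the log2 scale. In the order by level in myotubes, from Actn2 through Actn3, Flnc, Tcap, Pdlim3, Myoz2, Ldb3, Myot and Myoz1 to Myoz3, no spread can be given for a neighbouring pair, since each level is 1 value. Leaving out the genes of the list, the 5 tested genes nearest to their median point (12.8 and 199 FPKM) by distance in log2(FPKM + 1) over these 2 samples were Hfe2, Dhrs7c, Lmod3, Trim72 and Mef2c, at distances from 0.16 to 0.29.

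Z-disc genes have paralogs, some of which serve the cortex, stress fibres and adhesions of many cells. The make-up of these families by FPKM differed between the samples. Shares are those of the 10 listed genes, and other family members can be Z-disc proteins as well. Among alpha-actinins, Actn4, a non-muscle form, was listed at 522 FPKM in growing myoblasts and 234 in myotubes, a called fall (log2 -1.16, q = 4.50e-06, authors' deposited table). Actn1, the other non-muscle form, was at 166 and 110 FPKM and was not called. Actn2 made up 4.53% of the family's FPKM in growing myoblasts and 50.2% in myotubes, and Actn2 with Actn3 went from 23.4% to 80.8%. The family sum was 898 FPKM in the first sample and 1797 in the second, 2.00 times as high.

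Flna, the filamin of most cells, was listed at 1445 FPKM in growing myoblasts and 239 in myotubes, but the authors' test had failed for it, so that difference has no call. Flnc, at 96.0 and 314 FPKM, thus lay below Flna in the growing sample and above it in the myotubes.

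In the PDZ-LIM family Pdlim3 and Ldb3 together held 12.7% of the FPKM in growing myoblasts and 33.9% in myotubes. Pdlim7 (enigma), at 134 and 249 FPKM, remained the highest member in both samples. Pdlim5, at 20.4 and 117 FPKM, was called higher by the authors' deposited table (log2 2.52), as was Pdlim7 (log2 0.89). Pdlim2, at 32.6 and 10.4 FPKM, was called lower (log2 -1.64, authors' deposited table). Pdlim4, at 99.0 and 152 FPKM, was called higher only after centring on the median. In the myotilin family, Palld (palladin) was at 55.7 and 174 FPKM with a failed test. Myot held 6.02% of that family in growing myoblasts and 14.1% in myotubes, and 42.0% and 40.5% without Palld, an alternative chosen after seeing the data. Mypn, counted below with the linkers of the Z-disc, held 8.33% of the whole family in growing myoblasts and 20.6% in myotubes.

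**Figure D3:**
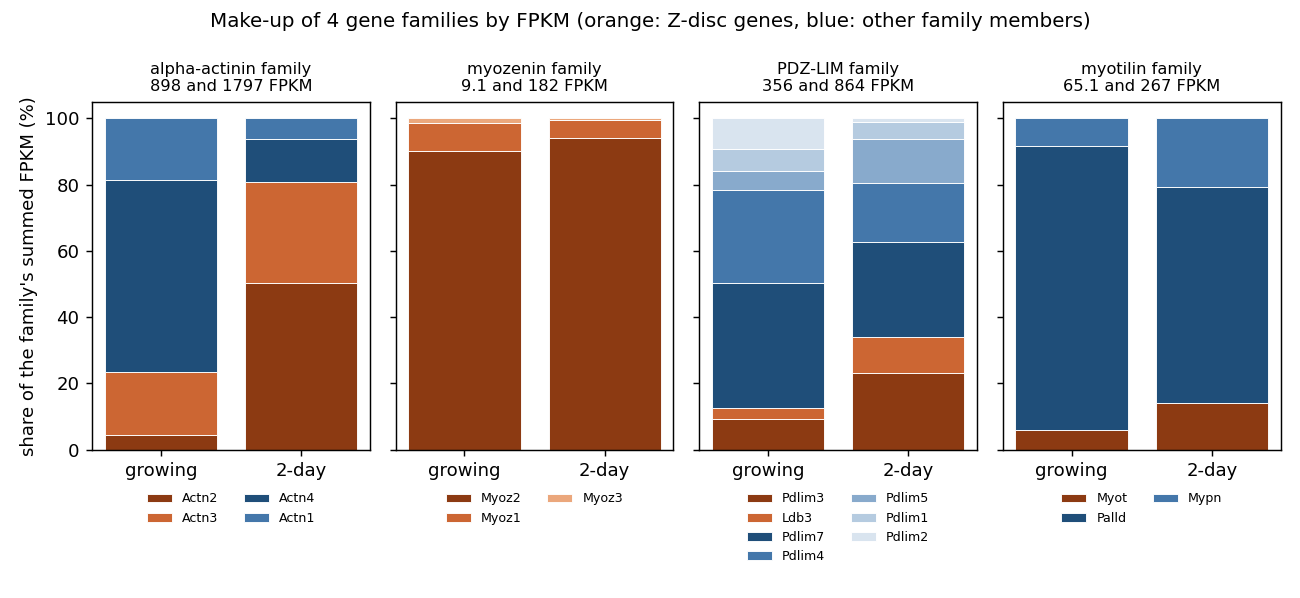
Share of each gene in the summed FPKM of its family in growing myoblasts and 2-day myotubes, 1 sample each. Orange shades are the listed Z-disc genes and blue shades the other family members, which include the Z-disc linker Mypn. Panel titles give the family sums. The orange part grew from 23.4% to 80.8% for alpha-actinins and from 12.7% to 33.9% for the PDZ-LIM family, while myozenins stayed mainly Myoz2.

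Counted as a list, the 9 broadly expressed paralogs reported (Actn1, Actn4, Flna, Palld and 5 Pdlim genes) had 2 called higher and 2 lower of 7 tested. Of all tested genes 6.52% were called higher and 17.3% lower. The lists of partners, like the 10 genes themselves, were drawn up with earlier results of these data known. Genes of filaments anchored at the Z-disc and of their linkers filled 16 rows, with Nrap in 2 of them. Of these rows, 10 rose and 1 fell by the authors' deposited table, beside 6.52% and 17.3% of all tested genes, and the median log2 ratio was 2.21 beside -0.38. Mypn (myopalladin), which binds nebulin and alpha-actinin, rose from 5.42 to 55.0 FPKM (log2 3.34), and Xirp1, an actin-binding repeat protein, from 6.78 to 61.5 FPKM (log2 3.18 by the authors' deposited table). Nebl, which encodes the short nebulin relative nebulette, fell from 10.7 to 2.09 FPKM (log2 -2.35, q = 0.00664, authors' deposited table). The lower of the Nrap rows was at 1.70 and 6.63 FPKM (q = 0.0341, authors' deposited table). The capping protein genes Capza2, at 222 and 301 FPKM, and Capzb, at 431 and 422, were not called; their products cap the barbed ends of actin in the Z-disc and elsewhere.

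Of 6 genes for chaperones and for filamin turnover at the Z-disc, 5 rose and 0 fell by the authors' deposited table, beside 6.52% and 17.3% of all tested genes, with a median log2 ratio of 1.74. Hspb7, a small heat shock protein that binds Flnc, rose from 8.76 to 145 FPKM (log2 4.05), and Cryab, which protects desmin and filamin, from 2231 to 18141 FPKM (log2 3.02, authors' deposited table). Hspb1 rose from 88.3 to 311 FPKM and Hspb8 from 224 to 715, both called by the authors' deposited table. Bag3, the co-chaperone of filamin disposal, named here after its values were seen, was at 50.9 and 45.7 FPKM and was the member not called. Calcineurin signalling, which myozenins bind, had, by the authors' deposited table, 2 of 10 tested genes called higher and 0 lower, beside 6.52% and 17.3% of all tested genes. Its median log2 ratio was -0.08, beside -0.38 over all of them. The calls were Akap6, an anchoring protein, from 4.28 to 31.0 FPKM (log2 2.86), and the transcription factor gene Nfatc2, from 0.484 to 2.83 FPKM (log2 2.54). The calcineurin subunit genes of the list were not called.

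**Figure D4:**
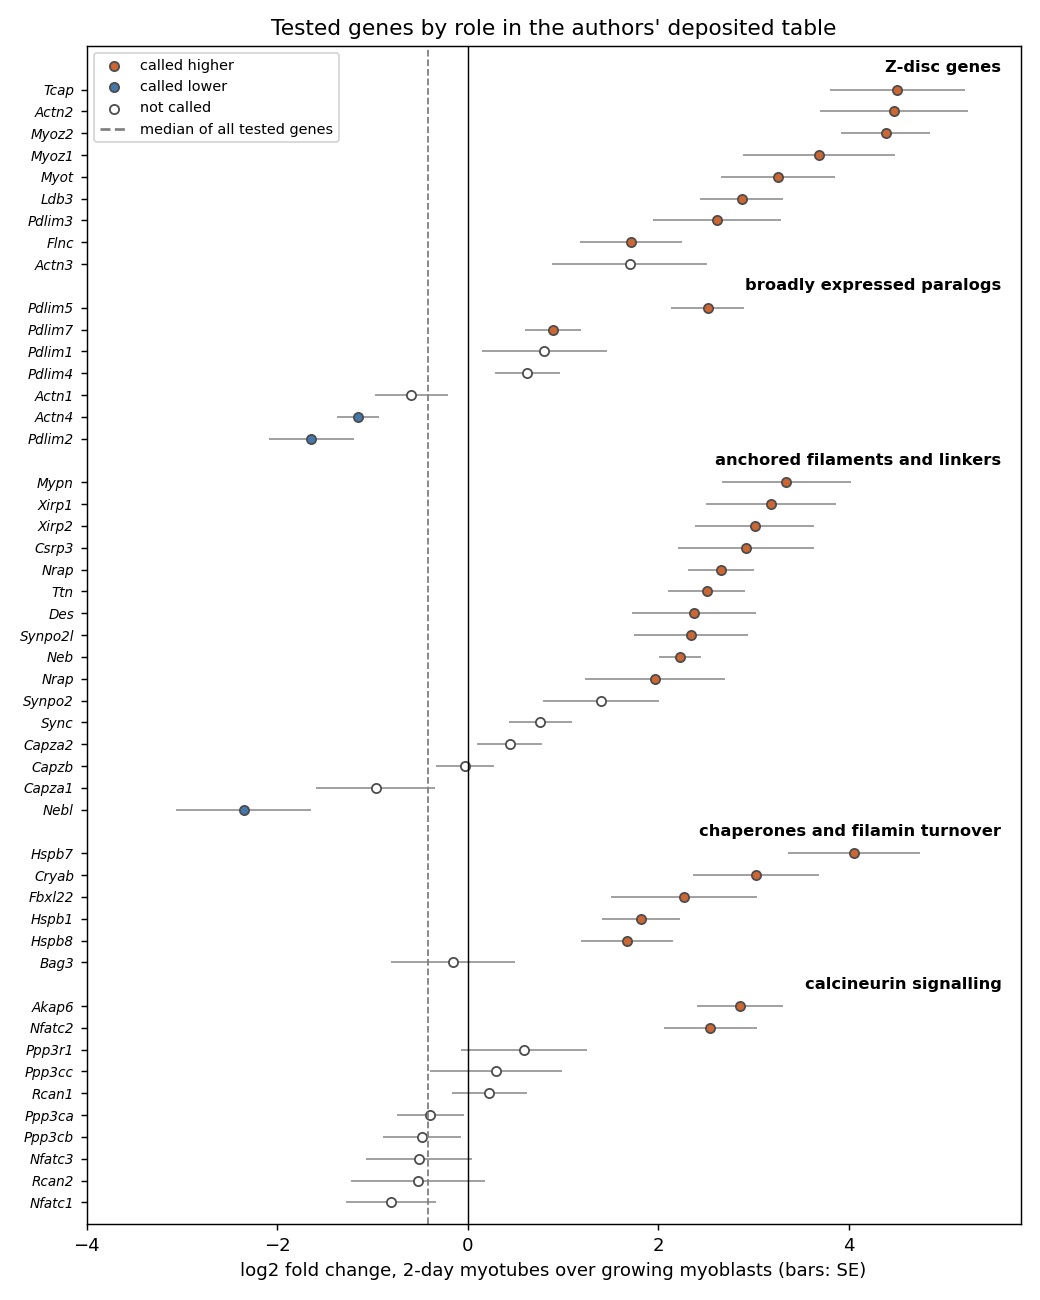
Log2 fold change with its SE (bars) for the tested Z-disc genes and the tested rows of 4 partner lists, 2-day myotubes over growing myoblasts, from the authors' deposited table. Filled orange points were called higher, blue lower and open points not called; 8 of 9 Z-disc genes and 10 of 16 rows for anchored filaments are orange, against 2 of 10 for calcineurin signalling.

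MyoD binding was described from the authors' list of 10756 peaks. Their caller listed 8637045 ChIP tags in total, of which 4049890 were unique, and 9129012 control tags, of which 4371189 were unique. Tags, fold enrichment and false discovery rate are the authors' values for each peak. A summit lay in or within 10 kb of the locus for 6 of the 10 Z-disc genes, beside 38.9% of the 15930 tested genes on the chromosomes of the list and 58.6% of those called higher by the authors' deposited table. The latter share covers called genes only. Among the 8 called Z-disc genes 4 had a summit, and both this and 6 in 10 are near that background. The 6 genes with a summit were Actn3 and Flnc with 3 each, Tcap, Myoz3 and Pdlim3 with 2 each, and Myot with 1. The remaining genes, Actn2, Myoz1, Myoz2 and Ldb3, had none. At least 3 summits were found at 8.40% of tested genes and 17.8% of those called higher. The loci of Z-disc genes had a median length of 25194 bp, beside 26498 bp for the tested genes and 29732.5 bp for those called higher. Z-disc loci without a summit were longer (median 45384 bp) than those with one (median 19169 bp). Some tested genes share a merged locus, such as Acta1 and Cdh15 in 4435365 bp with 93 summits inside. Such loci were not removed from the background shares.

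The 13 summits had 9 to 44 tags (median 21, beside 14 for all peaks) and 6.00-fold to 27.4-fold enrichment (median 13.7, beside 15.3). The false discovery rate was at most 5% for 3 of them, 1 each at Tcap, Flnc and Actn3, and for 19.4% of all peaks. The peak with the most tags lay inside Flnc at chr6:29388937-29389857, with 44 tags and 22.9-fold enrichment at a false discovery rate of 2.38%. As many tags or more were found in 3.71% of all peaks. Its summit was 6354 bp downstream of the 5′ end of the locus. The other Flnc summits were 2946 bp downstream (34 tags, 10.5-fold) and 2539 bp upstream of that end (22 tags, 6.00-fold). Their false discovery rates were higher, at 19.5% and 22.2%.

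At Actn3, a peak at chr19:4876832-4878193 with 42 tags and 11.3-fold enrichment had its summit 27 bp inside the higher-coordinate end of the locus. Another Actn3 peak, at chr19:4876021-4876775, had its summit 1443 bp from the same end, with 38 tags and the highest enrichment of the 13, 27.4-fold. The false discovery rate was 5.06% for the former peak and 2.54% for the latter. By tags only the Flnc peak above exceeded these Actn3 peaks among the 13, and Actn3 was the tested gene without a call. The third Actn3 summit, with 13 tags, lay 6015 bp beyond the other end, inside the neighbouring gene Ctsf.

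Tcap had a peak at chr11:98246327-98246994 with 32 tags and 22.0-fold enrichment, its summit 483 bp beyond the higher-coordinate end of the locus and 1013 bp from the next gene, Pnmt. The other Tcap summit, 9530 bp away with 21 tags, lay inside Pgap3. At Myoz3 the nearer summit was 128 bp beyond the higher-coordinate end (18 tags, 14.0-fold, chr18:60751261-60751773), and the other lay inside Synpo. Summits 27 to 483 bp from an end of the locus were thus listed at a gene with a called rise (Tcap), at one not called (Actn3) and at one not tested (Myoz3). The 5′ end is named only for genes whose strand the promoter table gives, which leaves out Tcap, Actn3, Myoz3 and Myot.

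Pdlim3 had a summit 7582 bp upstream of its 5′ end (18 tags, 10.8-fold) and one 11308 bp downstream (11 tags, 21.4-fold). Their false discovery rates were 23.6% and 6.51%. Myot had the weakest peak of the 13 by tags, inside its locus at chr18:44497313-44497502, with 9 tags and 13.7-fold enrichment. For Actn2 the nearest summit lay 28682 bp from the locus, beyond its 5′ end, with 19 tags. The nearest summit was 81427 bp away for Myoz2, 82073 bp for Ldb3 and 506534 bp for Myoz1. Only 6.85% of tested genes lay farther from a summit than Myoz1.

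**Figure D5:**
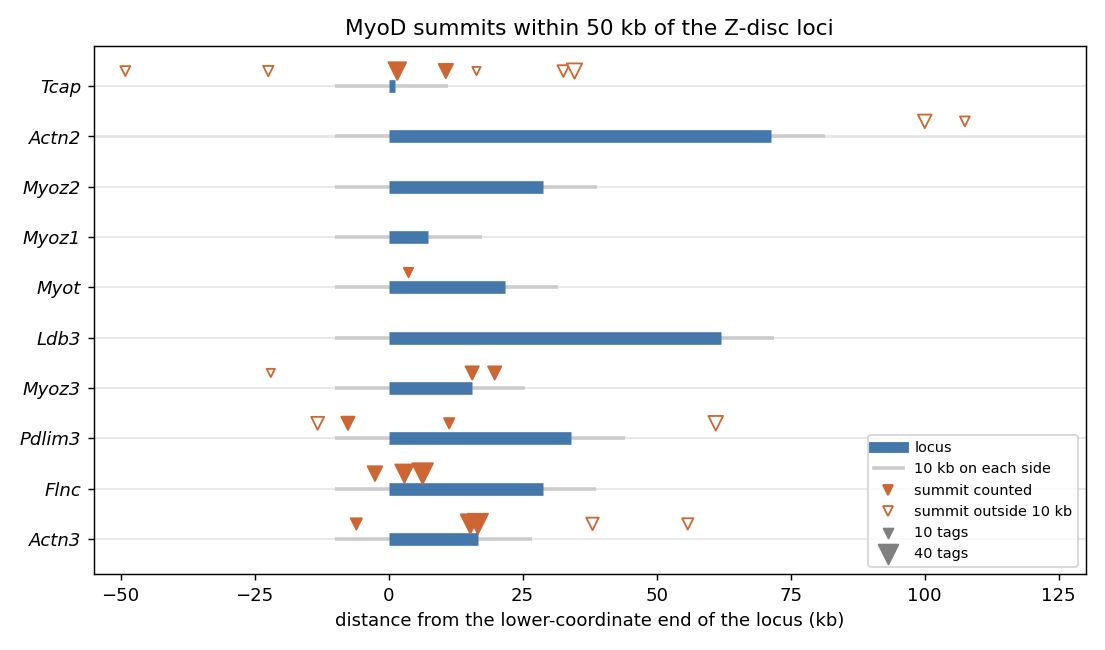
MyoD summits within 50 kb of each Z-disc locus, drawn as distance in kb from the lower-coordinate end, with genes ordered by log2 fold change from Tcap (top) to Actn3 (bottom). Marker size grows with tags, filled markers are the 13 summits counted and open markers lie more than 10 kb away; Myoz1, Myoz2 and Ldb3 have no summit within 50 kb.

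Set side by side, the 8 called genes were 4 with a summit (Tcap, Myot, Pdlim3, Flnc) and 4 without (Actn2, Myoz1, Myoz2, Ldb3). Of all tested genes called higher, 58.6% had a summit, so this split is near that share. The 4 without a summit had log2 fold changes between 2.87 and 4.47 (authors' deposited table). Those of the 4 with a summit lay between 1.71 (Flnc) and 4.51 (Tcap, the largest), a range that spans the former. The pair with 3 summits each, Flnc and Actn3, had the smallest log2 fold changes of the tested genes, 1.71 and 1.70. Both were also the highest of the 10 genes in growing myoblasts, the level that divides the fold change, and 1 of the Actn3 summits lay inside Ctsf. The comparison is a description of 10 genes chosen by name, from 1 peak call on 1 ChIP sample. The authors' list applies a threshold, so a gene with no listed summit is one where no peak passed it.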

How the data were processed

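Of the 7 samples, each a group of its own by its title, 3 were used: growing myoblasts and 2-day myotubes with empty vector (RNA), and MyoD ChIP of 2-day myotubes. The MyoD sample is labelled as taken from an earlier sample, and no MyoD antibody is among those the labels' protocol lists. That protocol states sequencing in duplicates; how these entered the files is unknown here.

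The authors deposited FPKM per gene in a table laid out as Cuffdiff writes it, with their p-values and q-values. Cuffdiff, CASAVA 1.7.0, MACS 1.3.7 and mm9 are in the submitters' processing notes. For aligner, annotation and normalization setting: not given in the sources used here. Nor is it known here which spread the authors' test used, or what the ChIP control was. The table came in 2 identical copies. Peaks were called by MACS with a p-value threshold of 1.00e-05, per the file headers. Tags per peak are counts, fold enrichment is a ratio to regional background, the p score is 10 times −log10 of p, and the false discovery rate is a percent, all as deposited.

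Each SE is the absolute ratio of the deposited log2 fold change to the deposited test statistic. Intervals cover 95% by the normal distribution. For the centred alternative, the median log2 fold change of tested genes above 0 in both conditions was subtracted, p was recomputed from the SE and adjusted over all 15966 tested genes (Benjamini-Hochberg). Peaks were joined to loci of the expression table by summit, at 10 kb. Steps were tested on simulated data. Python 3.11.15, pandas 2.3.3 and scipy 1.17.1 were used.

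All 10 members are named. In partner lists the called genes with the 2 largest and the 2 smallest log2 fold changes are named, and uncalled genes with a mean of at least 100 FPKM. Paralogs of the members are given as family values. Of the partner lists, 2 genes are not reported here, and counts and medians are over the rest. Members and lists were chosen with earlier results of these data known. Sequences are RefSeq's on GRCm38.p6, matched by symbol for 5 of 10 genes.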

Additional observations from a re-analysis of the deposited data

How the results depend on the processing

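The count of 8 Z-disc genes called higher was 8 at q of at most 0.01, with a mean of at least 1 FPKM and without overlapping loci, 7 at 0.001 (without Flnc) and at a mean of at least 10 FPKM (without Myoz1), and 9 after centring. Over all tested genes, centring took the share of higher calls from 27.3% to 49.7% (1568 higher, 9.82% of tested genes, and 1588 lower). Their median log2 ratio of 2.78 ranged from 2.19 (pseudocount 10) to 3.23 (pseudocount 0.1). Of 9 centred values for single genes, 8 kept their call and Actn3 became called. Pseudocounts give no call: 27 of 30 such values stayed within the gene's 95% interval, and 3 fell outside it. Those 3 came at a pseudocount of 10, which shrinks the ratios of low genes most: Myot at 1.77, Myoz1 at 0.87 and Myoz2 at 3.32. No log2 fold change turned its direction under these alternatives.

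The 13 summits were 6 inside loci, 25 within 50 kb, 3 at a false discovery rate of at most 5% and 7 with at least 20 tags. The 6 genes with a summit were 4, 7, 3 and 3 under those settings, and 6 when a summit counted only for the nearest tested gene. The 2 paralogs called higher became 1 at q of at most 0.01, and other counts of partner lists stayed within 1.5 times. These changes follow from how much each setting keeps. Among Actn2 and Actn3 alone, Actn2 held 19.4% of FPKM in growing myoblasts and 62.1% in myotubes. With 1 value per condition no replicate could be left out, and no paired analysis was possible because each group has 1 sample.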

Other observations

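Genes next to the Z-disc loci were looked at with the same table. Of 11 tested genes within 10 kb of a Z-disc locus, 2 rose and 0 fell by the authors' deposited table, beside 6.52% and 17.3% of all tested genes. Pnmt, which encodes the enzyme that makes adrenaline from noradrenaline, lies 1496 bp from Tcap and was at 0.0961 FPKM in growing myoblasts and 14.7 in myotubes (log2 7.26, SE 1.54, q = 4.72e-05, authors' deposited table). The Tcap peak with 32 tags lies between these loci, 483 bp from Tcap and 1013 bp from Pnmt. Reads that run past the end of Tcap were not separated from Pnmt here, so the Pnmt value is uncertain. Synpo2l, an actin-bundling protein of the sarcomere, lies 2405 bp from Myoz1 and rose from 41.6 to 211 FPKM (log2 2.34, q = 0.000876, authors' deposited table), and like Myoz1 it had no MyoD summit within 10 kb. Ctsf and Zdhhc24, which lie 310 and 758 bp from Actn3, were at 9.95 and 10.4 FPKM and at 9.64 and 10.995 FPKM, and neither was called.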
